A study of Homo sapiens with 6 samples.

Results

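Array features of microRNA loci that mark epithelium or are widely expressed in it were examined in benign prostate epithelial cells, namely the host transcripts MIR205HG, MIR31HG, MIR17HG and MIR22HG and the hairpin features MIR21, MIR205, MIR200C and MIR141. The members were chosen with earlier results of these data known, and their clusters were then taken by symbol alone. Of the 8 symbols 7 were carried by a transcript cluster, 1 cluster each, among 53617 clusters and 14884 named genes. MIR205HG was carried by no named cluster here and was not analysed. RNA came from RWPE-1, a line of non-tumourigenic human prostate epithelium grown in serum-free keratinocyte medium. RWPE1-183FC cells carried a lentivirus with the genomic miR-183 cluster (miR-183, miR-96 and miR-182) and RWPE1-CTRL cells carried a lentivirus with a scrambled RNA. Both vectors also carried GFP, and both populations were sorted as polyclonal GFP-positive cells. Each group had 3 biological replicates with 1 array each, and no untransduced cells were analysed here, so that effects shared by both vectors cannot be seen.

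A microRNA gene is transcribed as a long primary transcript, from which Drosha and DGCR8 cut a hairpin and Dicer then cuts the mature strand. The seed, bases 2 to 8 of the mature strand, directs Argonaute to matching mRNAs. A host transcript is the longer RNA that contains one or more hairpins in an intron or exon. miR-205 is abundant in basal cells of stratified and glandular epithelium, and miR-200c and miR-141 are held to maintain the epithelial state through repression of ZEB1 and ZEB2. The arrays read labelled total RNA through probes within each cluster. A hairpin feature can therefore read the hairpin or any longer transcript that contains it, and it does not measure the mature strand.

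The mature strands of these loci are shown first, because what a feature can stand for depends on the microRNA it encodes. They are given 5′ to 3′ from RefSeq (GRCh38.p14), with the seed in capitals.
miR-205-5p: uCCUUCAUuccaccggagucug
miR-21-5p: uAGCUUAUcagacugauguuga
miR-31-5p: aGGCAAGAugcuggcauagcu
miR-22-3p: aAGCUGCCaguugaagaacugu
miR-17-5p: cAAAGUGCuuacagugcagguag
miR-200c-3p: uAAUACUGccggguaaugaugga
miR-141-3p: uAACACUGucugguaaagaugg
miR-200c-3p and miR-141-3p, which come from neighbouring hairpins with 330 bases between them, differ within the seed only by U4C, counted from 1 at the 5′ end of miR-200c-3p. Outside these members, miR-200b-3p and miR-429 have the seed of miR-200c-3p, and miR-200a-3p has that of miR-141-3p.

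The strands of the overexpressed cluster are set beside them to show how their seeds compare.
miR-183-5p: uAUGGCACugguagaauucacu
miR-96-5p: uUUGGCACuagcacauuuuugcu
miR-182-5p: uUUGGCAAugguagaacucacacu
None of the 15 microRNAs looked up for these loci and their seed families had the seed of a miR-183 family member. The smallest difference, of 1 base, was between miR-92a-3p of the MIR17HG transcript and miR-183-5p (U4G, counted from the 5′ end of miR-92a-3p).

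The hairpins behind the hairpin features that the results turn on follow, with the mature strand in capitals. They lie at chr1:209432133-209432242 (plus strand, MIR205), chr12:6963699-6963766 (plus strand, MIR200C) and chr9:21512115-21512185 (minus strand, MIR31) of GRCh38.p14.
MIR205: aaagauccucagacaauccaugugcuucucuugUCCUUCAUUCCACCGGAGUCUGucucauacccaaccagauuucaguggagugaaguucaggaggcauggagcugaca
MIR200C: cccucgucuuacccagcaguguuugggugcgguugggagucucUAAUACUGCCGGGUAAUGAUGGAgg
MIR31: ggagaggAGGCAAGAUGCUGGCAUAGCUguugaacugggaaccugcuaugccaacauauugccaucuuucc

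The deposited values were log2 levels after RMA, with a median of 3.82 to 3.86 on each array over all clusters and 4.936 to 4.998 over named clusters. The overexpressed locus separated the groups at its MIR96 and MIR183 features but not at MIR182. The MIR96 feature was at 5.55 ± 0.37 in RWPE1-183FC and 2.35 ± 0.39 in RWPE1-CTRL (SD, n = 3 each). It was the only one of 1236 hairpin features called over all clusters (limma adjusted p = 0.0904). The MIR183 feature was at 4.34 ± 0.26 in RWPE1-183FC and 2.54 ± 0.43 in RWPE1-CTRL. The MIR182 feature was at 3.27 ± 0.16 in RWPE1-183FC and 2.94 ± 0.29 in RWPE1-CTRL, with overlapping groups and a log2 difference of 0.34. It lay below the array median on all 6 arrays. An overexpressed hairpin can thus go without a clear difference in its feature here. Of the epithelial markers, 5 of 5 measured basal genes and 9 of 9 measured luminal or general epithelial genes had means above the array median in both groups. TP63 and CDH1 were not among the named genes. The mean over the basal list ran from 7.31 to 7.54 in RWPE1-183FC and from 7.17 to 7.38 in RWPE1-CTRL, and the mean over the luminal and general list from 7.39 to 7.59 in RWPE1-183FC and from 7.43 to 7.46 in RWPE1-CTRL. KRT15, a basal keratin, was called higher (log2 difference 0.96, limma adjusted p = 0.00633) and KRT19, a luminal keratin, lower (log2 difference -1.11, limma adjusted p = 0.0009). The other genes of these lists were not called. Of the 5 basal genes 3 had higher and 2 lower means in RWPE1-183FC, with log2 differences of -0.20 for KRT5, whose groups did not overlap, and -0.09 for KRT14. Of the 9 luminal or general genes the other 8 had higher means, KRT8 by 0.28 and GRHL2 by 0.28. Of other cell types, 2 of 4 stromal genes, 2 of 3 endothelial genes and 1 of 1 blood gene lay below the median in both groups, and the stromal markers DCN and LUM were among them. The stromal list also held DES, which was called higher (log2 difference 1.06). All 4 neuroendocrine and both prostate secretory genes measured (KLK2 and KLK3) had means above the array median, in both groups at most 5.22, and none was called. What these marker differences contribute to the values below was not tested.

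All 7 measured members had group means above the array median in both RWPE1-183FC and RWPE1-CTRL. Only MIR200C had arrays below it, and these were 2 of the 3 RWPE1-183FC arrays and none of the RWPE1-CTRL arrays. For comparison with the 4 hairpin members, 796 of the 1236 hairpin features on the arrays (64.4%) had both group means below the median. This share does not cover the 3 host transcripts, and the median over named clusters was higher than over all clusters. Probes differ in affinity, so that these positions describe the features and do not rank the RNAs. Against the median over named clusters, the RWPE1-183FC mean of MIR200C also fell below, and single arrays lay below for MIR200C (2 in each group) and MIR141 (1 in RWPE1-183FC).

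**Figure D1:**
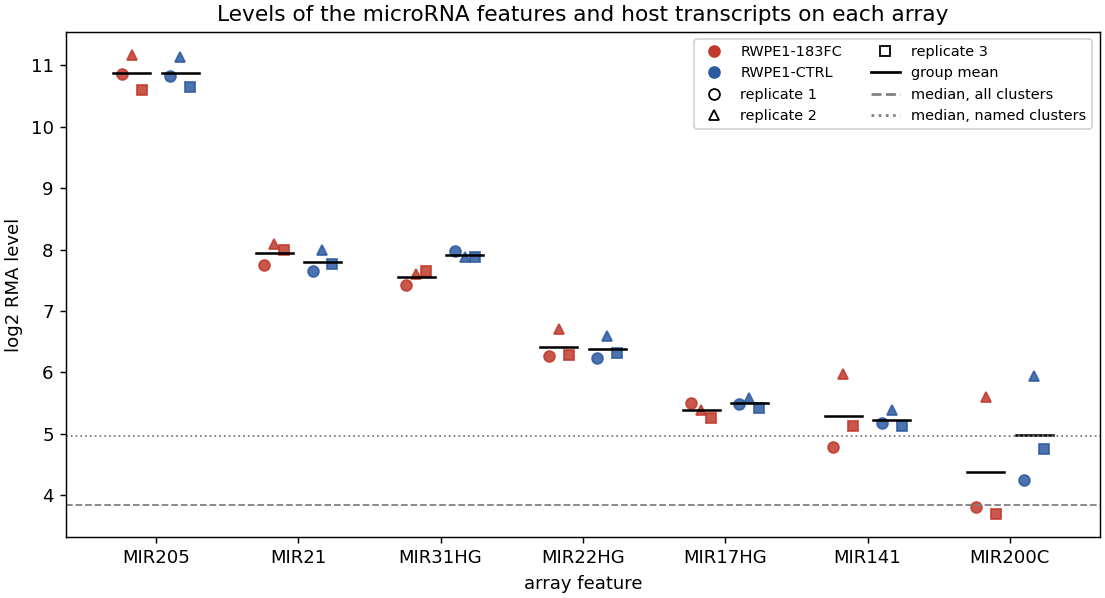
Log2 RMA level (vertical axis) of the 7 measured features (horizontal axis) on each of the 6 arrays, with a point per array, a bar for the group mean, and lines for the medians over all and over named clusters. MIR205 sits near 11 in both groups, MIR31HG is the feature whose groups do not overlap, and 2 RWPE1-183FC arrays of MIR200C sit below the lower line.

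None of the 7 passed the test between the groups in the main fits, which did not use the replicate numbers. Genes were called by limma at a false-discovery rate (FDR) under 0.2 with a fold change over 1.5. Among the genes kept by the study's filter on median and variance, 0.939% were called (90 of 9583), and of the 6 members that passed the filter 0 were called, with 1 (MIR200C) at an unadjusted p under 0.05. MIR17HG did not pass the filter. Over all 53617 clusters with no filter 0.0261% were called, and again 0 of the 7, with 1 (MIR31HG) at an unadjusted p under 0.05. MIR200C had an unadjusted limma p of 0.338 in this fit, and the exact permutation test gave it 0.5. The median log2 difference of the 7 was 0.01, against 0.0004 over all clusters. At 3 arrays a group, the exact permutation test cannot give a p below 0.1.

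MIR205, the hairpin of the basal epithelial miR-205, was at 10.87, 11.17 and 10.60 in RWPE1-183FC replicates 1, 2 and 3, against 10.83, 11.13 and 10.65 in RWPE1-CTRL. The groups overlapped throughout. The hairpin lies within the MIR205HG locus in RefSeq, and whether the feature also reads MIR205HG RNA cannot be told apart here. It lay above at least 98.9% of all clusters on every array, and no hairpin feature was brighter on all 6 arrays. Its log2 difference was 0.01 (95% confidence interval from -0.45 to 0.46, limma over all clusters, adjusted p = 1.00), so that a change of 1.5-fold or more in either direction lay outside the interval.

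MIR21, the hairpin of the widely expressed miR-21, was at 7.75, 8.09 and 7.99 in RWPE1-183FC, against 7.65, 7.99 and 7.76 in RWPE1-CTRL. Each RWPE1-183FC array was above the RWPE1-CTRL array of its own number, by 0.10, 0.11 and 0.23, but the groups overlapped. The log2 difference was 0.14 (95% confidence interval from -0.22 to 0.50, limma adjusted p = 1.00). VMP1, the protein-coding gene that overlaps the MIR21 locus in RefSeq and acts in autophagosome formation, was at 9.87 ± 0.14 in RWPE1-183FC and 9.76 ± 0.16 in RWPE1-CTRL (SD, n = 3 each). MIR21 minus VMP1 within an array averaged -1.93 in RWPE1-183FC and -1.96 in RWPE1-CTRL, which did not differ beyond the spread (exact permutation test, two-sided, p = 1).

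MIR200C showed the widest spread of the members. It was at 3.81, 5.60 and 3.69 in RWPE1-183FC, against 4.24, 5.94 and 4.76 in RWPE1-CTRL, so that replicate 2 was high in both groups and the groups overlapped. Within each replicate number it was lower in RWPE1-183FC, by 0.44, 0.33 and 1.06 for replicates 1, 2 and 3. The log2 difference was -0.61, and its 95% confidence interval without the filter or a replicate block ran from -2.01 to 0.79 (limma). Over all clusters its standard error was 0.597 without the block and 0.183 with it, where the limma adjusted p was 0.712. In the filtered fit the adjusted p was 0.682. With the replicate number as a block it was 0.123 and the gene was called lower, but with the block and no filter it was 0.332. Single arrays also decided the call in the filtered fit: the log2 difference was -1.23 without RWPE1-183FC replicate 2 (limma adjusted p = 0.000323), -0.98 without RWPE1-CTRL replicate 1 (adjusted p = 0.0844) and -0.72 without RWPE1-CTRL replicate 3 (adjusted p = 0.376). It was -0.13 when RWPE1-CTRL replicate 2 was left out, and -0.33 and -0.27 when RWPE1-183FC replicate 1 or 3 was. The limma adjusted p there was 0.99 to 1.00, with no call. In these filtered fits every member had the same standard error, 0.246 without RWPE1-183FC replicate 2, which did not carry the spread of MIR200C itself. Over all clusters without that array the limma adjusted p of MIR200C was 0.922. With all 6 arrays and a robust variance prior, the filtered fit gave MIR200C a standard error of 0.797 (limma, unadjusted p = 0.486).

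MIR141, the hairpin next to MIR200C, did not follow the same order within the replicate numbers. It was at 4.78, 5.97 and 5.12 in RWPE1-183FC, against 5.17, 5.39 and 5.13 in RWPE1-CTRL. The differences within replicates 1, 2 and 3 were -0.39, 0.57 and -0.01, and the overall log2 difference was 0.06 (95% confidence interval from -0.62 to 0.74, limma adjusted p = 1.00). MIR200C minus MIR141 within an array averaged -0.92 in RWPE1-183FC and -0.25 in RWPE1-CTRL, and the groups overlapped (exact permutation test, two-sided, p = 0.3). Within replicates 1, 2 and 3 the difference between groups in this value was -0.05, -0.91 and -1.05, lower in RWPE1-183FC each time. An exact sign-flip test over these pairs, added after seeing the data, gave p = 0.25, the smallest that 3 pairs allow. Both hairpins may be cut from 1 primary transcript, and they correlated at r = 0.76 over the 6 arrays, as a description. Their measured protein-coding neighbours C12orf57, PHB2 (prohibitin 2, a mitochondrial scaffold protein) and EMG1 (a ribosome biogenesis factor) had log2 differences of 0.01, 0.07 and 0.10, and none was called.

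**Figure D2:**
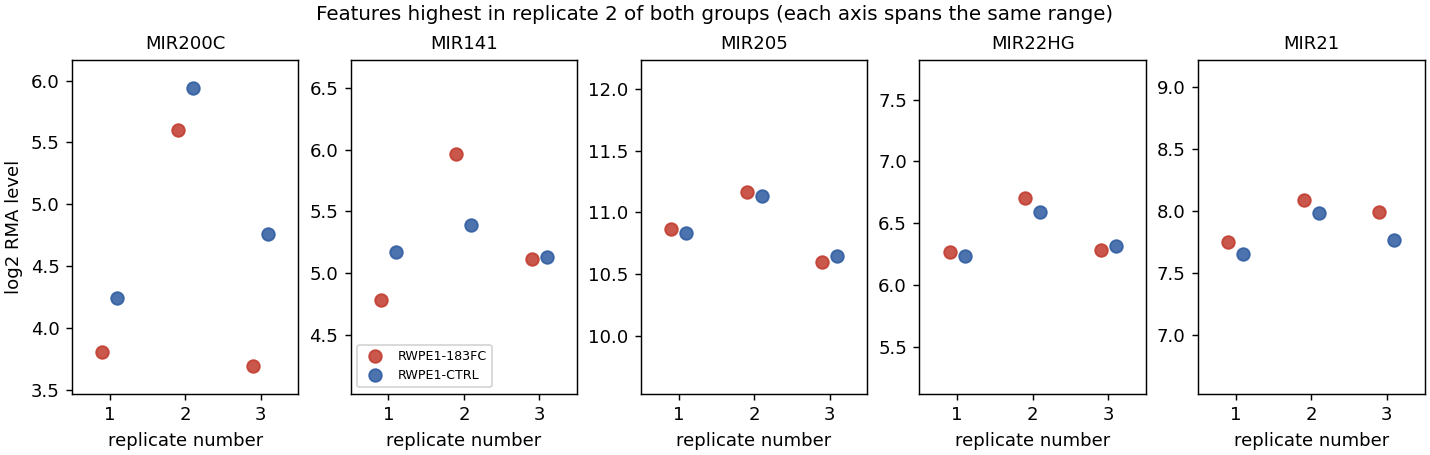
Log2 RMA level (vertical axes, each spanning the same range) against replicate number for the 5 members whose highest array was replicate 2 in both RWPE1-183FC and RWPE1-CTRL. The step between replicate 2 and the others is largest for MIR200C and exceeds the difference between groups in that panel.

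Replicate 2 was the highest array of both groups for 5 of the 7 members, MIR200C, MIR141, MIR205, MIR22HG and MIR21, and for 15.9% of all clusters. In MIR200C replicate 2 lay above the mean of replicates 1 and 3 by 1.86 in RWPE1-183FC and 1.44 in RWPE1-CTRL. In MIR205 these steps were 0.43 and 0.39, and in MIR22HG 0.43 and 0.31. In all 5 members the step was larger in both groups than the size of the difference between group means. MIR31HG and MIR17HG did not have it. This shared step is also in any correlation between these features, and what set replicate 2 apart is not given in the sources used here.

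MIR31HG, a long non-coding RNA that contains the hairpin of miR-31 in an intron, was the only member whose groups did not overlap. It was at 7.42, 7.60 and 7.65 in RWPE1-183FC, against 7.97, 7.88 and 7.88 in RWPE1-CTRL. It was lower in RWPE1-183FC in each replicate, by 0.55, 0.27 and 0.23. The log2 difference was -0.35, a fold of 0.784 (95% confidence interval on the log2 scale from -0.65 to -0.06, unadjusted p = 0.026 and adjusted p = 1.00 from limma over all clusters). In the filtered fit its adjusted p was 0.999, and 0.504 with the replicate block. The exact permutation test gave 0.1, and 9.13% of all clusters had no overlap between groups. With any 1 array left out the log2 difference ran from -0.40 to -0.28.

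The MIR31 hairpin feature, which belongs to the same locus, went the other way and was called higher. It was at 6.29, 6.18 and 6.69 in RWPE1-183FC, against 5.55, 5.26 and 6.05 in RWPE1-CTRL, again with no overlap. The log2 difference was 0.77, with a standard error of 0.22 and a limma adjusted p of 0.0991 in the filtered fit. It was 0.0154 with the replicate block and 0.673 without the filter, where the gene was not called. The call was also lost when any of 4 arrays was dropped, with limma adjusted p of 0.708 and 0.752 for RWPE1-CTRL replicates 1 and 2 and of 0.44 and 1.00 for RWPE1-183FC replicates 1 and 3, although the log2 difference stayed at 0.59 or more. MIR31 minus MIR31HG within an array was -1.12, -1.43 and -0.95 in RWPE1-183FC, against -2.42, -2.62 and -1.82 in RWPE1-CTRL, with no overlap. The means differed by 1.12 (exact permutation test, two-sided, p = 0.1, the smallest that 3 arrays against 3 allow). Within replicates 1, 2 and 3 the values differed by 1.29, 1.19 and 0.87 (exact sign-flip test over the pairs, p = 0.25). Because MIR31 was higher and MIR31HG lower with no overlap in either, this value could not overlap. The outcome of both tests was thus fixed beforehand, and they add nothing to the results of the separate features. MIR31 is named here as the 1 called among 14 measured features in a list of these loci, their seed families and some other hairpins.

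**Figure D3:**
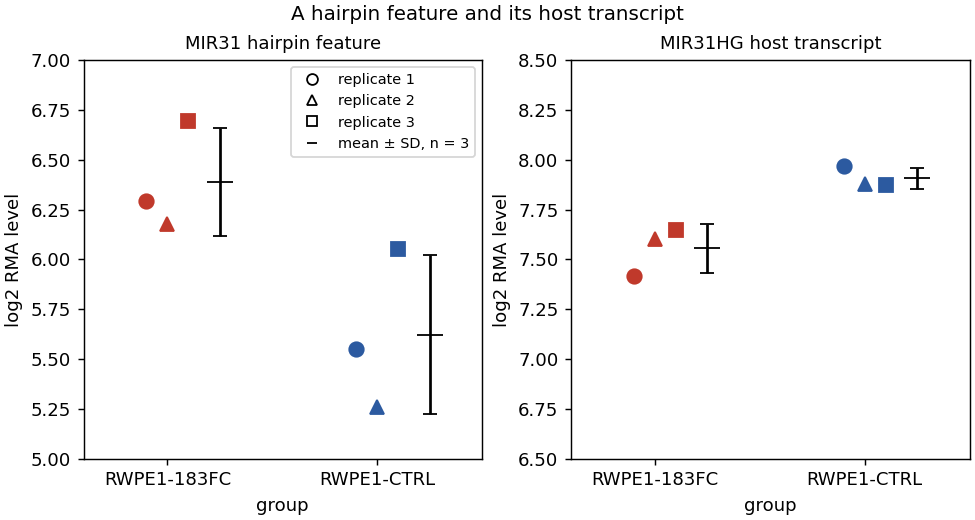
Log2 RMA level of the MIR31 hairpin feature and of its host transcript MIR31HG in RWPE1-183FC and RWPE1-CTRL, with a point per array and mean ± SD (n = 3). Both features separate the groups, MIR31 with higher and MIR31HG with lower levels in RWPE1-183FC.

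Of the coding neighbours of MIR31HG, MTAP (a methionine salvage enzyme) and CDKN2A (which encodes cell cycle inhibitors) were measured. CDKN2A was at 7.19, 6.94 and 6.99 in RWPE1-183FC, against 6.80, 6.63 and 6.34 in RWPE1-CTRL, with no overlap, and its limma adjusted p was 0.999 in the filtered fit (log2 difference 0.45). MTAP had a log2 difference of 0.21 with overlapping arrays.

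MIR17HG, the host of the miR-17-92 cluster that MYC is known to induce, was at 5.49, 5.38 and 5.26 in RWPE1-183FC, against 5.49, 5.59 and 5.41 in RWPE1-CTRL. The groups overlapped, and the log2 difference was -0.12 (95% confidence interval from -0.42 to 0.18, limma adjusted p = 1.00). MYC itself was at 9.44 ± 0.32 in RWPE1-183FC and 9.06 ± 0.26 in RWPE1-CTRL (SD, n = 3 each) and did not pass the test (limma adjusted p = 0.999). Of the measured neighbours of MIR17HG, GPC5 was not called, and GPC6, a glypican further along the chromosome, was called lower, with a log2 difference of -0.89 (limma adjusted p = 0.0172). MIR22HG, the host of miR-22, was at 6.26, 6.70 and 6.28 in RWPE1-183FC, against 6.24, 6.59 and 6.32 in RWPE1-CTRL. Replicate 2 was high in both groups, and the log2 difference was 0.04 (95% confidence interval from -0.37 to 0.44, limma adjusted p = 1.00). Its measured neighbours PRPF8 (a core spliceosome protein), TLCD2 and WDR81 had differences between -0.09 and 0.06 and none was called.

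**Figure D4:**
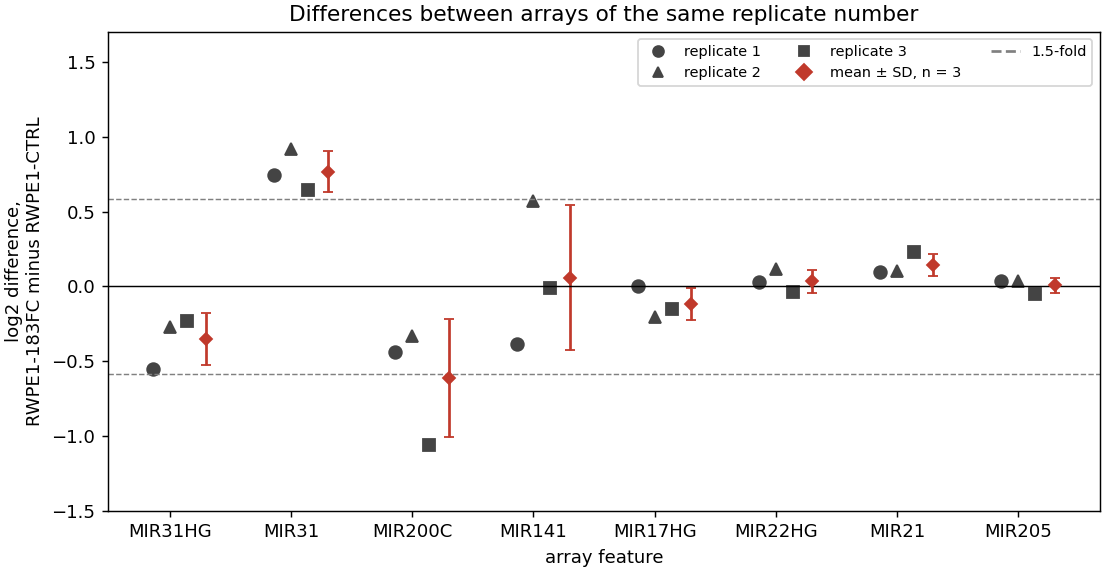
Log2 difference, RWPE1-183FC minus RWPE1-CTRL (vertical axis), between arrays of the same replicate number for the 7 members and the MIR31 hairpin feature (horizontal axis), with the mean ± SD of the 3 differences and dashed lines at 1.5-fold. MIR31HG and MIR200C lie below 0 and MIR31 and MIR21 above 0 in all 3 replicates, and the 3 values of MIR205 lie between -0.05 and 0.03.

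The sign of the difference was the same in all 3 replicate numbers for 3 of the 7 members, MIR31HG and MIR200C with lower and MIR21 with higher values in RWPE1-183FC, and for 26.8% of all clusters.

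Other features of these loci and seed families were dim or did not pass the test. Of 14 measured features (23 listed), 8 passed the filter, and MIR31 was the only one called. The list also held MIR203A, MIR221, MIR222, MIR27B, MIR23B and MIR24-1, which are of neither these loci nor these seed families. The list's median log2 difference was 0.17, with 12 higher and 2 lower means, against 0.01 over all named genes. MIR200A, MIR200B and MIR429, the other hairpins of the family that shares the seeds of miR-200c and miR-141, had means below the array median in both groups. Of 17 measured other host transcripts (33 listed), limma called none of the 10 past the filter, and 0 of these had an unadjusted p under 0.05. Without the filter none of the 17 was called and 1, MIR99AHG, had an unadjusted p under 0.05. MIR99AHG was at 2.74, 2.97 and 2.87 in RWPE1-183FC, against 3.25, 3.10 and 3.30 in RWPE1-CTRL. Its groups did not overlap, all 6 arrays lay below the array median, and the log2 difference was -0.36 (unadjusted p = 0.0322 and adjusted p = 0.991 from limma with no filter). MIR210HG had the next largest log2 difference, of -0.23, with overlapping arrays.

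Of 34 listed genes that act in microRNA processing and silencing, 17 were measured and 10 passed the filter. DROSHA and DICER1 were not among those measured. Limma called none, with or without the filter, and 0 had an unadjusted p under 0.05 in either fit. The median log2 difference was 0.01, the same as over all named genes. SND1, a nuclease of the RNA-induced silencing complex, had the largest at -0.28, followed by TNRC6C, an Argonaute-binding repressor, at 0.27, both with overlapping arrays. DGCR8, which binds the hairpin for Drosha, was at 5.81 ± 0.14 in RWPE1-183FC and 5.80 ± 0.11 in RWPE1-CTRL (SD, n = 3 each). It did not pass the filter.

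Of 13 measured regulators reported for these loci (12 past the filter), 1 was called lower and none higher, and of 27 measured reported targets (24 past the filter) likewise 1 and none. Among all filtered genes 0.939% were called. An unadjusted limma p under 0.05 in the filtered fit was reached by 2 of the 12 regulators (ZEB1 and ZEB2). It was also reached by 4 of the 24 targets (PDCD4, TIMP3, ZEB1 and ZEB2), against 4.74% of all filtered genes. ZEB1 and ZEB2 count in both lists, which were written with earlier results of these data known. These shares are therefore neither separate from each other nor independent of the data. The called gene was in both lists ZEB1, a repressor of the miR-200 genes and itself a target of miR-200c, miR-141 and miR-205. ZEB1 was at 3.401 ± 0.212 in RWPE1-183FC and 4.195 ± 0.052 in RWPE1-CTRL (SD, n = 3 each; limma adjusted p = 0.068), with its RWPE1-183FC mean below the array median. ZEB2, which shares these roles, was at 3.34 ± 0.15 in RWPE1-183FC and 3.94 ± 0.25 in RWPE1-CTRL (SD, n = 3 each). It was not called (limma adjusted p = 0.467) but was called lower with the replicate block (0.133). PDCD4 is a reported target of miR-21, and a study the paper cites names it as a target of miR-182. It was at 8.08, 8.13 and 8.15 in RWPE1-183FC, against 8.61, 8.77 and 8.57 in RWPE1-CTRL, with no overlap. Its log2 difference was -0.53 (limma adjusted p = 0.721). With the replicate block the limma adjusted p was 0.164, and only the fold limit kept it from being called. Which microRNA, if any, this difference reflects was not tested. TIMP3, another reported target of miR-21, had a log2 difference of 0.47 (limma adjusted p = 0.941). The median log2 difference was -0.01 for the regulators and -0.04 for the targets, against 0.01 over all named genes.

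Over the 6 arrays the named genes most like each member, by Pearson's r as a description, were ANKRD26 (0.981) and NSD2 (0.977) for MIR31HG and MIR4715 (0.994) and ZNF92 (0.98) for MIR17HG. For MIR22HG they were PECR (0.998) and OSGIN1 (0.994). For MIR21 they were MATN2 (0.992) and F2RL3 (0.991), and for MIR205 CCNL2 (0.994) and PMS2P5 (0.994). For MIR200C they were MIR210HG (0.994), another host transcript, and SF1 (0.987). For MIR141 they were SRGAP2 (0.997) and BACE1-AS (0.995). With 6 arrays, 20 to 112 named genes reached r over 0.95 with each member, and the step of replicate 2 is in the values of the 5 members that had it.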

How the data were processed

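RNA of RWPE1-183FC and RWPE1-CTRL cells was measured on Affymetrix arrays, 6 in all. The authors deposited log2 values after RMA (background correction, quantile normalization, probe summary). Their methods name the R package oligo, whereas Partek and RMA are listed in the submitters' processing notes; versions and the build are not given in the sources used here. The number of arrays limits the precision.

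Of 53617 clusters 16098 carried 1 symbol. The other 37519 were treated as unnamed, as any cluster with several symbols would be. The brightest cluster per symbol gave 14884 genes. After the study's methods, the 20% of genes lowest in median or in variance were left out (9583 kept), and limma 3.58.1 (R 4.3.3) compared the groups with Benjamini-Hochberg adjustment. A fit over all clusters had no filter; it gave the confidence intervals. Levels of single features and within-array differences were compared by exact permutation tests (scipy 1.17.1), and within-array differences also by an exact sign-flip test over the replicate numbers, added after seeing the data. Neighbours came from RefSeq (GRCh38.p14), and all members that had a hairpin feature matched its sequence table. Figures were drawn with matplotlib 3.10.9.

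Named genes were the members, the MIR183, MIR96 and MIR182 features, the called genes (at most 6) or the 2 with the largest difference in each list, the 2 nearest coding genes on each side, and the 2 genes most correlated with each member. The others named (DGCR8, MYC, the epithelial and stromal markers, PDCD4, TIMP3, ZEB2, the MIR200A, MIR200B and MIR429 features, and TNRC6C beside SND1) were chosen for their roles or after their values were seen. Members and lists were chosen with earlier results of these data known, and the lists were written from memory.

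Arrays of the same replicate number deviated together (r = 0.101, 0.511 and 0.29 over 14884 genes for replicates 1, 2 and 3). By the rule of r over 0.1 for each pair, arrays of 1 number were treated as a pair in the block fits and sign-flip tests. The main filtered and all-cluster fits, the confidence intervals and the permutation tests did not use the pairing. The sources used here do not state a shared batch, and RWPE1-183FC replicate 1 correlated more with RWPE1-CTRL replicate 3 (0.214). The fit was tested on 10 simulations of 14884 genes for this comparison: the filtered fit called 34.8% of genes changed 1.5-fold and 77.6% of genes changed 2-fold, and 46.5% of its calls were of unchanged genes, against 26.4%, 86.6% and 19.4% with no filter. Alternatives were the block, each array left out, normalization, array weights, the variance prior, filters and thresholds.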

Additional observations from a re-analysis of the deposited data

How the results depend on the processing

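The settings that drop both replicate 2 arrays, or that join the replicate block to an unfiltered fit, were added after seeing the data. Among filtered genes, 90 were called. That count was 162 under the replicate block, 192 under array weights, 36 unfiltered, 37 when only the median was filtered, and 51 when the FDR limit was 0.05. Dropping 1 array gave 43 to 151 (RWPE1-183FC replicate 1, 43; replicate 2, 151; replicate 3, 57; RWPE1-CTRL replicate 1, 58). Over all clusters, 14 were called. That count was 35 under array weights, 32 under a robust prior, 38 when only clusters above the median were fitted, and 0 when the FDR limit was 0.05 or both replicate 2 arrays were dropped. Dropping 1 array gave 0 to 10, with 10 only for RWPE1-CTRL replicate 2 (limma, with 2460 clusters at an unadjusted p under 0.05 in the full fit). Members called in the filtered fit numbered 1 instead of 0 under the replicate block, under array weights and when both replicate 2 arrays were dropped, and 0 to 1 when 1 array was dropped. MIR200C was the member each time. The block changed no other member's call, and over all clusters 0 members were called under each alternative run. Direction turned for 3 members near 0. MIR205 was at -0.00611 under array weights over all clusters, -0.00745 when both replicate 2 arrays were dropped and -0.14 to 0.15 when 1 array was. Under array weights in the filtered fit, MIR205 was at -0.0397 and MIR141 at -0.0915, whereas MIR141 was at 0.00416 over all clusters. MIR141 was at -0.20 when both were dropped and -0.28 to 0.31 when 1 was, and MIR22HG at -0.00445 when both were and -0.11 to 0.14 when 1 was. The MIR31 feature kept its direction throughout, and its call was also lost at an FDR limit of 0.05, when only the median was filtered (adjusted p = 0.606) and when both replicate 2 arrays were dropped (0.283). The cause of these shifts was not tested. MIR200C lay near the array median on several arrays, and no detection value was at hand to set its signal against background.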
